A study of Capra hircus with 4 samples.

Results

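The genes described are the ligands SLIT2 and SLIT3 and the receptors ROBO1 and ROBO2, which are 4 of the 28944 features counted in goat ovary nuclei. They were chosen by name, and part of their pattern was already known from these libraries: ROBO2 as a gene of mural granulosa cells (GCs) and ROBO1 as a gene named by the study for its difference between breeds. Levels across cell classes are therefore a description, with no test, and the breed difference of ROBO1 is not independent evidence. Nuclei came from the left ovaries of 2 Nubian goats of a polytocous group, which the labels give a litter size of 3 or more, and 2 Du'an goats of a monotocous group, with a litter size of 1. All 4 goats were about 3 years old and had carried the same progesterone insert of 300 mg for 17 days to bring them into estrus together, with no hormone to induce superovulation. Each goat gave 1 droplet library, in which every RNA molecule is counted through a unique molecular identifier (UMI). With 2 goats a breed, any other trait common to both goats of a breed cannot be told apart from breed.

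SLIT proteins are large secreted glycoproteins that bind ROBO receptors, single-pass membrane proteins of the immunoglobulin superfamily, through leucine-rich repeats. The receptors have no enzyme activity and act through adaptor proteins on the actin cytoskeleton, which is how the pathway repels growing axons and restrains cell migration. In the ovary the pathway is known from follicles and the corpus luteum, where it has been linked to cell survival, proliferation and the regression of luteal tissue. In the RefSeq annotation of assembly ARS1.2, ROBO1 and ROBO2 lie on the same chromosome with 2 genes between them, while SLIT2 and SLIT3 lie on different chromosomes.

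The matrices held 48332 nuclei and between 40573246 and 71613892 UMIs per library, and 44872 nuclei were kept. Classes were rebuilt by clustering without the SLIT and ROBO genes and named from marker genes, since the authors' annotation of nuclei was not used here. Pericyte-like nuclei had 5 of 7 measured pericyte markers up, epithelial-like 6 of 7, ciliated-like 7 of 7, theca-like 4 of 5 and T or natural killer-like 9 of 9. Support was weaker for the clusters named granulosa-like, which had 5 or 6 of 10 granulosa markers up. Their mean log2 fold over this list was at most 1.699, against 3.16 or more in each cluster named as another class. Within the GCs, mural granulosa-like subclusters were named from CYP19A1 (aromatase), LHCGR, INHBA, INHBB and SERPINE2, with 3 to 5 of these 5 up. The mural subcluster with 3 up held 169 nuclei. Nuclei low in CYP19A1 were kept as aromatase-low granulosa-like. Both states together are called granulosa-like below. The theca (steroid-producing) list, which shares LHCGR with the mural list, did not separate those classes: its 5 measured genes summed to 1550 to 2848 CPM in theca-like and to 1552 to 3062 CPM in mural granulosa-like nuclei, where CPM is the UMIs of a gene per 1000000 UMIs summed over the nuclei of a class in a goat. In pericyte-like nuclei the pericyte list summed to 698 to 1033 CPM, against 134 to 170.5 CPM in smooth muscle-like nuclei, while the smooth muscle list was as high there, at 3233 to 5775 CPM, as in smooth muscle-like nuclei, at 3516 to 4569 CPM. Most mural subclusters came from a single goat each: the largest held 3254 nuclei, of which 3239 were from Nubian replicate 1. Du'an replicate 1 had only 6 mural nuclei and gives no mural value, since a value needed at least 20. Common progenitor subclusters also differed by goat. That of 2181 nuclei had 1969 from Du'an replicate 1, and that of 2628 had 2544 from Nubian replicate 2. Many nuclei of this state came from clusters of 4388 and 3213 nuclei that no class list named. Levels of this state by goat are therefore partly those of different subclusters. Fibroblast-like nuclei were almost all from Nubian replicate 1, with 543 of 568, and are a value of that goat alone. Between 54 and 131 barcodes occurred in both members of each pair of libraries, and removing all nuclei with a shared barcode left the class with the highest mean level of each gene as it was.

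The ligands and the receptors were highest in different classes. SLIT2 and SLIT3 were highest in pericyte-, epithelial- and ciliated-like nuclei, with a lower level in smooth muscle-like nuclei, and low in every granulosa state. ROBO2 was highest in mural granulosa-, theca- and smooth muscle-like nuclei in each goat that had the class, except that cycling GCs exceeded smooth muscle-like nuclei in Nubian replicate 1. ROBO1 was also highest in mural granulosa-like nuclei, but with a wide spread between goats, and Nubian replicate 1 had the highest ROBO1 level in each of the 12 classes that all 4 libraries filled. These 12 count granulosa-like nuclei beside the aromatase-low nuclei that are part of them.

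**Figure D1:**
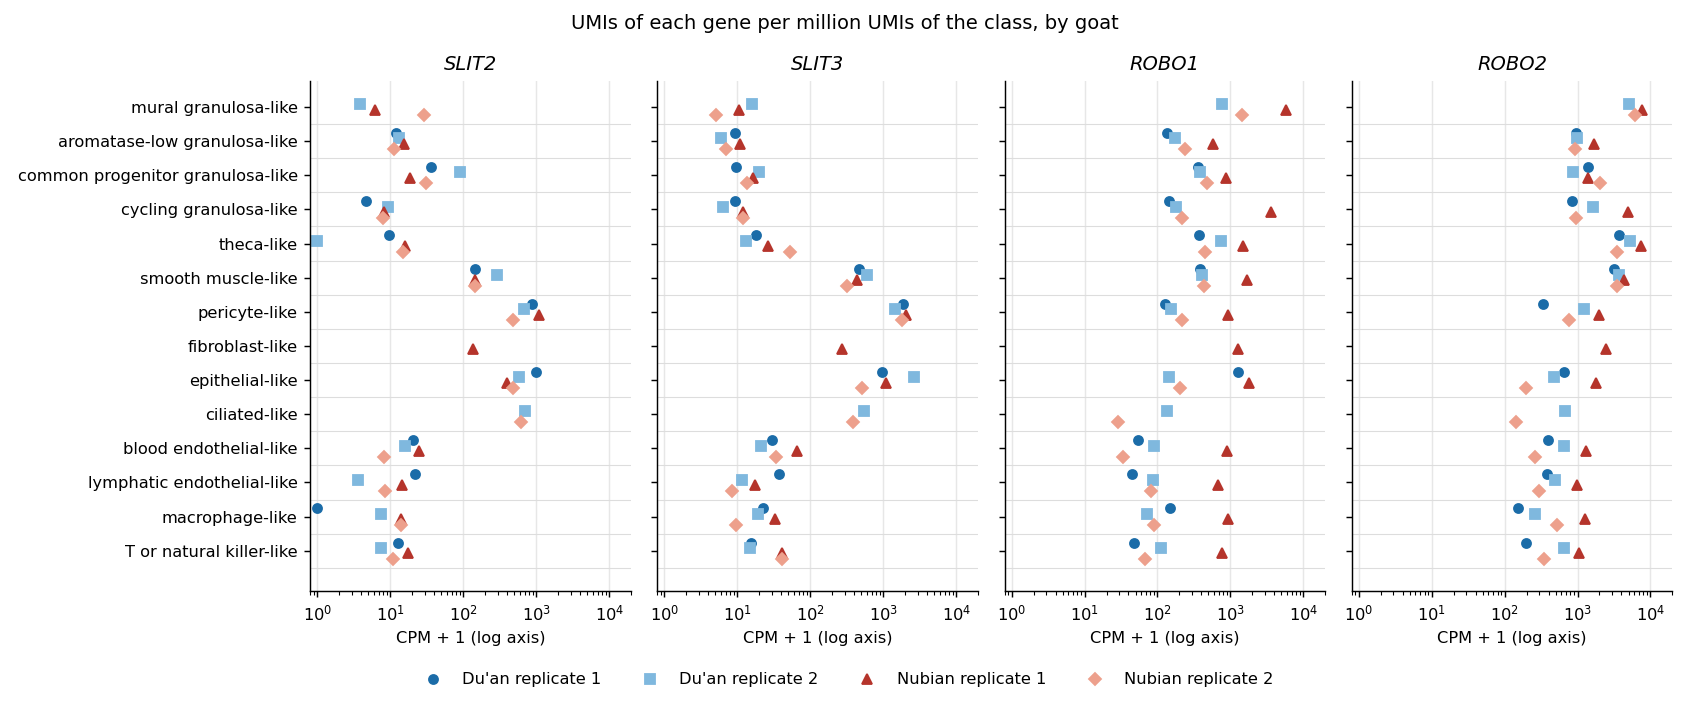
Level of each gene (x axis, CPM plus 1, log axis) in each class (y axis), with 1 symbol per goat and no symbol where a class held under 20 nuclei. SLIT2 and SLIT3 sat above 100 CPM in smooth muscle-, pericyte-, fibroblast-, epithelial- and ciliated-like nuclei in every goat shown. For ROBO1 the Nubian replicate 1 triangles sat to the right of the other goats in every class with 4 symbols.

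CPM was used to compare classes and goats for a gene, and not to compare genes with each other. Of the ligands, SLIT3 had its highest mean level in pericyte-like nuclei. It measured 1838 and 1441 CPM in Du'an replicates 1 and 2 and 2028 and 1811 CPM in Nubian replicates 1 and 2, a mean of 1779 ± 245 CPM (SD, n = 4). The breeds overlapped in these cells, which wrap small vessels. In epithelial-like nuclei SLIT3 measured 943 and 2619 CPM in the Du'an and 1087 and 509 CPM in the Nubian libraries. The mean there was 1289 ± 920 CPM (SD, n = 4), and the difference from pericyte-like nuclei within goats was smaller than its own SD, 490 ± 1126 CPM, so that the order of these neighbours is not settled. Ciliated-like nuclei, which had enough nuclei in 2 goats, measured 540 CPM in Du'an replicate 2 and 383 CPM in Nubian replicate 2. Smooth muscle-like nuclei followed with 457 and 602 CPM in the Du'an and 428 and 313 CPM in the Nubian libraries, and did not differ from ciliated-like nuclei beyond the spread.

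SLIT2 had the same leading classes. In pericyte-like nuclei it measured 879 and 675 CPM in the Du'an and 1094 and 476 CPM in the Nubian libraries, a mean of 781 ± 266 CPM (SD, n = 4). Ciliated-like nuclei measured 701 and 624 CPM in the second replicates of the Du'an and Nubian goats. Epithelial-like nuclei measured 1004 and 585 CPM in the Du'an and 400 and 483 CPM in the Nubian libraries. These classes overlapped, and in the 2 goats with both classes pericyte-like nuclei were below ciliated-like nuclei, with a difference of -87.1 ± 86.8 CPM (SD, n = 2), against the order of the means. Epithelial-like nuclei exceeded smooth muscle-like nuclei in 4 of 4 goats, by 438 ± 283 CPM (SD, n = 4). SLIT2 in smooth muscle-like nuclei was 145, 142 and 143 CPM in Du'an replicate 1 and both Nubian goats, and 288 CPM in Du'an replicate 2.

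The granulosa states had low ligand levels. SLIT3 ranged from 4.16 to 18.5 CPM over the mural, aromatase-low, common progenitor and cycling states of all goats. Set within goats against aromatase-low GCs, pericyte-like nuclei had 206 to 300 times the SLIT3 level and 46.5 to 79.5 times the SLIT2 level. The common progenitor state had more SLIT2 than the other 3 named states in each goat, with 34.8 and 89.8 CPM in the Du'an and 17.6 and 29.9 CPM in the Nubian libraries. Theca-like nuclei, the steroid-producing cells around the follicle, measured 0 to 15.1 CPM of SLIT2 and 12.2 to 51.8 CPM of SLIT3. For comparison, T or natural killer-like nuclei, used as a reference class, measured 6.34 to 16.3 CPM of SLIT2 and 13.9 to 39.7 CPM of SLIT3, so that every SLIT3 value of the 4 granulosa states lay within or under the range of these lymphocytes. SLIT2 in common progenitor GCs was above the range of the lymphocytes in all 4 goats, at 3.01 and 14.2 times the level of the same goat's lymphocytes in the Du'an and 1.08 and 3.02 times in the Nubian goats. The lymphocyte levels rest on few SLIT2 UMIs, with 4 and 30 in the Du'an goats and 19 in Nubian replicate 1. In Nubian replicate 1 the common progenitor GCs held 51, too few to separate levels as close as 1.08 times.

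The share of nuclei with a UMI gave the same order once nuclei were thinned to 1000 UMIs each. SLIT3 was seen in 63.9 ± 6.3% of pericyte-like nuclei (SD, n = 3), 51.4 ± 19.8% of epithelial-like nuclei (SD, n = 4) and 27.1 ± 5.5% of smooth muscle-like nuclei (SD, n = 4). SLIT2 was seen in 37.4 ± 4.7% (SD, n = 3), 33.9 ± 8.0% and 11.5 ± 2.0% (SD, n = 4) of the same classes. In T or natural killer-like nuclei the shares were 2.0 ± 2.1% for SLIT3 and 0.75 ± 0.51% for SLIT2 (SD, n = 4). Without thinning, the shares in pericyte-like nuclei were 70.4% and 47.0%, against 4.77% and 2.22% in T or natural killer-like nuclei, at medians of 1435 and 2288 UMIs per nucleus, so that the deeper class had the lower share. Thinning left out 29.4% of the pericyte-like and 48.2% of the smooth muscle-like nuclei as too shallow, and over all classes 3873 Du'an and 6468 Nubian nuclei.

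Because classes differ in size, the class with the highest level was not always the one that held most of a ligand's UMIs. Smooth muscle- and pericyte-like nuclei together held 84.9% and 71.6% of all SLIT3 UMIs in Du'an replicate 1 and Nubian replicate 1. In Du'an replicate 2 and Nubian replicate 2 they held 36.0% and 39.1%, and epithelial- and ciliated-like nuclei held 47.0% and 45.8%. The number of epithelial-like nuclei captured was 24 and 36 in the first of these pairs of goats and 90 and 394 in the second. For SLIT2, epithelial- and ciliated-like nuclei held 5.7% and 2.4% in the first pair against 32.8% and 53.5% in the second. Granulosa nuclei held a further 42.5% and 25.7% of the SLIT2 UMIs in the Du'an goats and 17.5% and 24.5% in the Nubian goats. In Du'an replicate 1 the common progenitor GCs alone held 38.5%, at a low level but over 3104 nuclei. The split of ligand UMIs between classes thus differed between goats of the same breed.

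**Figure D2:**
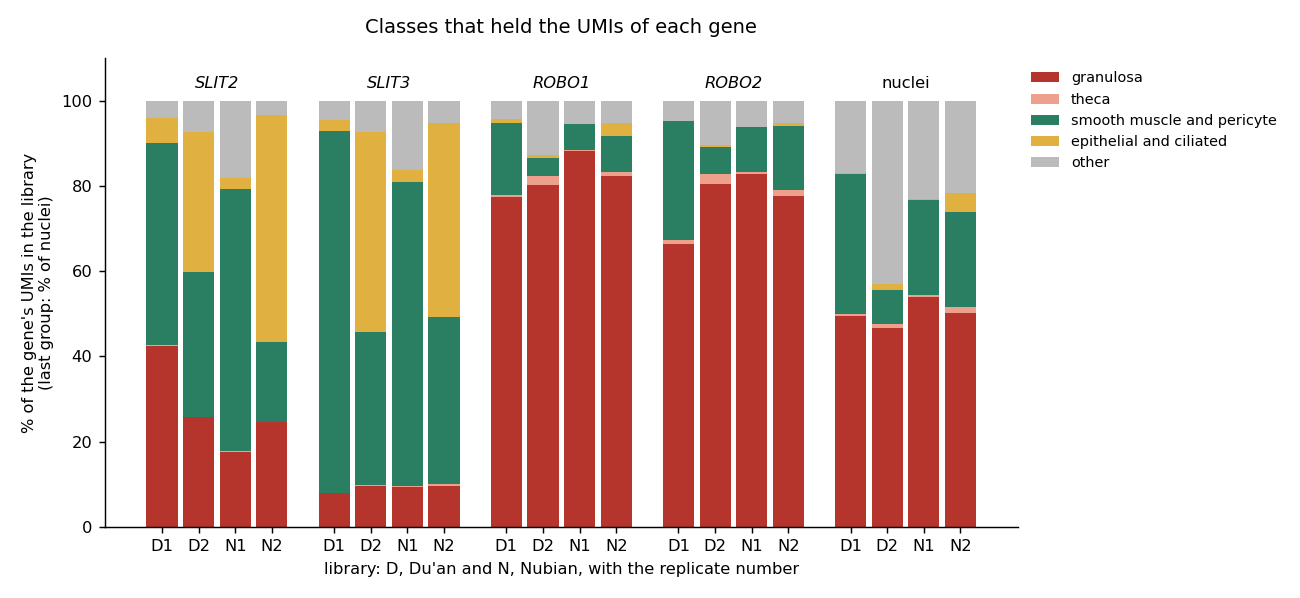
Share of each gene's UMIs in a library (y axis, percent) held by 5 groups of classes, with 1 bar per library and the same split of all nuclei in the last group of bars. The receptors' bars were mostly granulosa in all 4 libraries, from 66.4% to 88.3%. In D1 common progenitor GCs alone held 53.5% of the ROBO2 and 67.9% of the ROBO1 UMIs. These shares are not adjusted for depth, and the median was 3877 UMIs in nuclei of this state against 2279 in all kept nuclei. As a level in D1, ROBO2 was 1403 CPM in common progenitor GCs and 1413 CPM over all kept nuclei. For ROBO1 these levels were 358 and 284 CPM. Many nuclei of that state came from clusters that no class list named. The SLIT3 bars were mostly smooth muscle and pericyte in D1 and N1, with a large epithelial and ciliated part in D2 and N2.

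Of the receptors, ROBO2 was highest in mural granulosa-like nuclei, which line the wall of the antral follicle. It measured 5049 CPM in Du'an replicate 2 and 7666 and 6091 CPM in Nubian replicates 1 and 2, a mean of 6269 ± 1317 CPM (SD, n = 3). Theca-like nuclei, on the other side of the follicle's basement membrane, measured 3699 and 5155 CPM in the Du'an and 7518 and 3503 CPM in the Nubian libraries. Mural and theca-like nuclei overlapped and did not differ beyond their spread, with a difference within goats of 876 ± 1487 CPM (SD, n = 3). Smooth muscle-like nuclei measured 3167 and 3720 CPM in the Du'an and 4328 and 3434 CPM in the Nubian libraries, the narrowest spread among these classes, at 3662 ± 498 CPM (SD, n = 4). Theca-like nuclei were above smooth muscle-like nuclei in 4 of 4 goats, although the mean difference of 1306 CPM was smaller than its SD of 1378 CPM.

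Within the GCs, ROBO2 separated the mural state from the others in each goat that had mural nuclei. Aromatase-low GCs measured 940 and 982 CPM in the Du'an and 1687 and 912 CPM in the Nubian libraries. The mural level was 5.14, 4.54 and 6.68 times that level in Du'an replicate 2, Nubian replicate 1 and Nubian replicate 2. Common progenitor GCs measured 1403 and 877 CPM in the Du'an and 1407 and 2031 CPM in the Nubian libraries. In Du'an replicate 1 ROBO2 was 2071 CPM in the unnamed cluster of 4388 nuclei and 515 CPM in that of 3213. Cycling GCs measured 826 and 1628 CPM in the Du'an and 4958 and 937 CPM in the Nubian libraries, so that Nubian replicate 1 stood far above the rest. In that goat 710 of its 797 cycling nuclei belonged to a subcluster in which 5 of 5 mural markers were up, against 0 of 171, 36 of 268 and 13 of 286 in Du'an replicates 1 and 2 and Nubian replicate 2.

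ROBO1 was also higher in the mural state than in aromatase-low GCs, by 4.49, 10.1 and 6.15 times in Du'an replicate 2, Nubian replicate 1 and Nubian replicate 2. Its mural level was 777 CPM in Du'an replicate 2, 5851 CPM in Nubian replicate 1 and 1461 CPM in Nubian replicate 2. The mean of 2696 ± 2753 CPM (SD, n = 3) has a spread as large as itself, and without Nubian replicate 1 the mean was 1119 CPM. Aromatase-low GCs measured 136 and 173 CPM in the Du'an and 576 and 238 CPM in the Nubian libraries. Common progenitor GCs measured 358 and 382 CPM in the Du'an and 876 and 481 CPM in the Nubian libraries, and were above the aromatase-low state in all 4 goats. Between the Nubian goats the mural level differed by 4.0 times for ROBO1 and by 1.26 times for ROBO2. ROBO1 also reached 1252 and 1793 CPM in the epithelial-like nuclei of Du'an replicate 1 and Nubian replicate 1, which held only 24 and 36 such nuclei, against 142 and 205 CPM in the goats with 90 and 394. The ROBO1 gap between the Nubian goats in mural nuclei was wider than the 1.88-fold gap between Nubian replicate 2 and Du'an replicate 2. It was narrower than the 7.53-fold gap between Nubian replicate 1 and Du'an replicate 2.

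**Figure D3:**
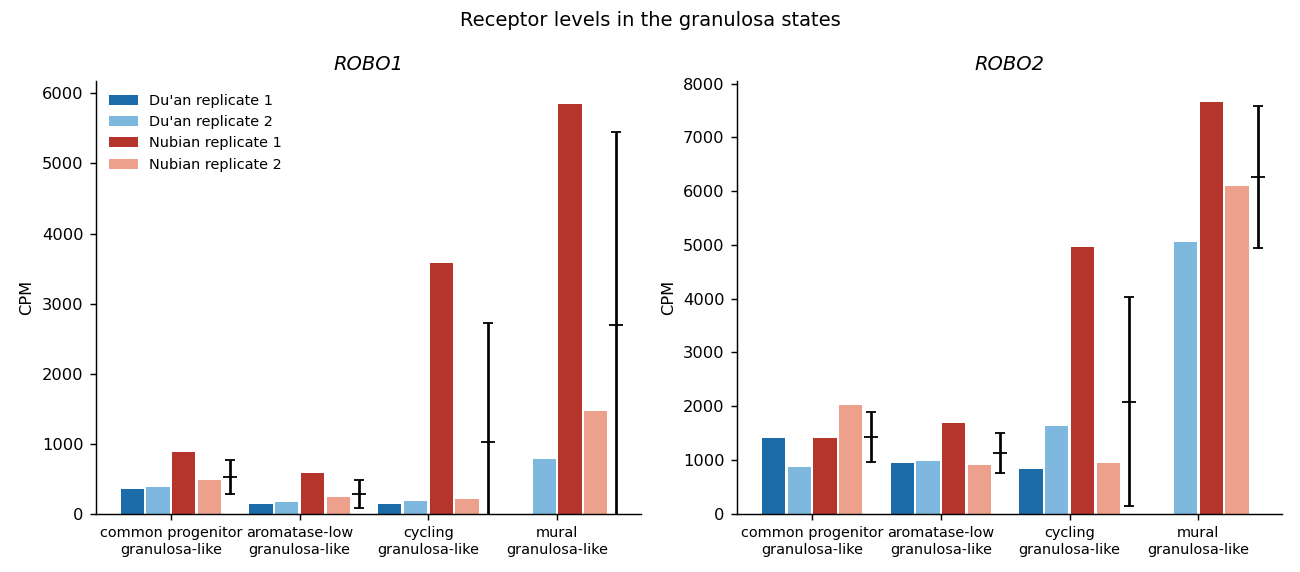
ROBO1 and ROBO2 levels (y axis, CPM) in the 4 granulosa states, with 1 bar per goat and, to the right of each group, the mean with its SD over goats, where a lower SD bar that would pass below 0 ends at the axis. Du'an replicate 1 has no mural bar because it held 6 mural nuclei. ROBO2 was highest in the mural state in each of the 3 goats shown there, from 5049 to 7666 CPM, while the ROBO1 bars of the mural and cycling states were dominated by Nubian replicate 1, at 5851 and 3580 CPM.

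The authors also deposited, for genes past their own marker limits, how often a gene was seen among nuclei of a granulosa subtype or follicle stage, pooled over libraries and on their own annotation. In the authors' table of subtypes ROBO2 was seen in 99.2% and ROBO1 in 90.1% of mural GCs. In the table of stages the receptors were listed for antral follicles, with 99.1% for ROBO2 and 90.3% for ROBO1. SLIT2 and SLIT3 were not listed in either table. These pooled shares carry no error over goats. After thinning to 1000 UMIs, ROBO2 was seen in 92.2 ± 4.4% of mural granulosa-like nuclei (SD, n = 3), 91.0 ± 6.1% of theca-like and 88.7 ± 4.1% of smooth muscle-like nuclei (SD, n = 4). In T or natural killer-like nuclei the share was 34.8 ± 19.0% (SD, n = 4), and without thinning it was 58.9%, at a median of 2288 UMIs, against 96.9% in mural granulosa-like nuclei at a median of 4762 UMIs. ROBO1 was seen in 58.2 ± 24.8% of thinned mural nuclei (SD, n = 3), and in T or natural killer-like nuclei in 15.8 ± 18.6% (SD, n = 4), with a highest value of 43.3%, in Nubian replicate 1. Without thinning, these ROBO1 shares were 78.9% and 29.4%.

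RNA free in the suspension can give UMIs of an abundant gene in nuclei that do not express it, so receptor levels were set beside those of T or natural killer-like nuclei of the same goat. The ROBO2 level of mural nuclei was, in Du'an replicate 2, Nubian replicate 1 and Nubian replicate 2, 7.83, 7.34 and 17.5 times that of the lymphocytes. In theca-like nuclei it was 18.8 and 7.99 times in the Du'an goats and 7.20 and 10.1 times in the Nubian goats, and in smooth muscle-like nuclei 16.1, 5.77, 4.15 and 9.89 times in the same order. All of these levels were above those of the lymphocytes. For ROBO1 the theca-like level was 8.04, 6.56 and 6.65 times that of the lymphocytes in Du'an replicates 1 and 2 and Nubian replicate 2, and 1.97 times in Nubian replicate 1. Blood endothelial-like nuclei measured 0.485 to 1.17 times the lymphocyte level for ROBO1. For ROBO2 they measured 2.03 times in Du'an replicate 1 and 0.758 to 1.23 times in the other 3 goats. Pericyte-like nuclei were above the lymphocytes for ROBO2 in all 4 goats, by 1.73 to 2.18 times.

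Genes that mark mural GCs were followed across the same classes as a measure of RNA from mural cells. CYP19A1 was in theca-like nuclei at 7.36%, 12.9% and 2.07% of its mural level in Du'an replicate 2, Nubian replicate 1 and Nubian replicate 2. In smooth muscle-like nuclei CYP19A1 was at 10.4%, 22.9% and 2.26% of its mural level. ROBO2 in the same goats was at 102%, 98.1% and 57.5% of its mural level in theca-like nuclei and at 73.7%, 56.5% and 56.4% in smooth muscle-like nuclei. Relative to mural nuclei, ROBO2 in these classes was above CYP19A1 in each of the 3 goats. CYP19A1, INHBA and SERPINE2 belong to the list that named the mural state, and the receptors do not. That naming can raise the mural level of these genes and so lower their percent in other classes. ROBO1 was at 94.1%, 25.7% and 30.7% in theca-like nuclei and at 53.1%, 29.0% and 29.8% in smooth muscle-like nuclei. In Nubian replicate 1 these ROBO1 values lay beside those of the mural genes INHBA and SERPINE2, which were at 28.9% and 28.7% in theca-like and at 32.7% and 32.4% in smooth muscle-like nuclei.

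**Figure D4:**
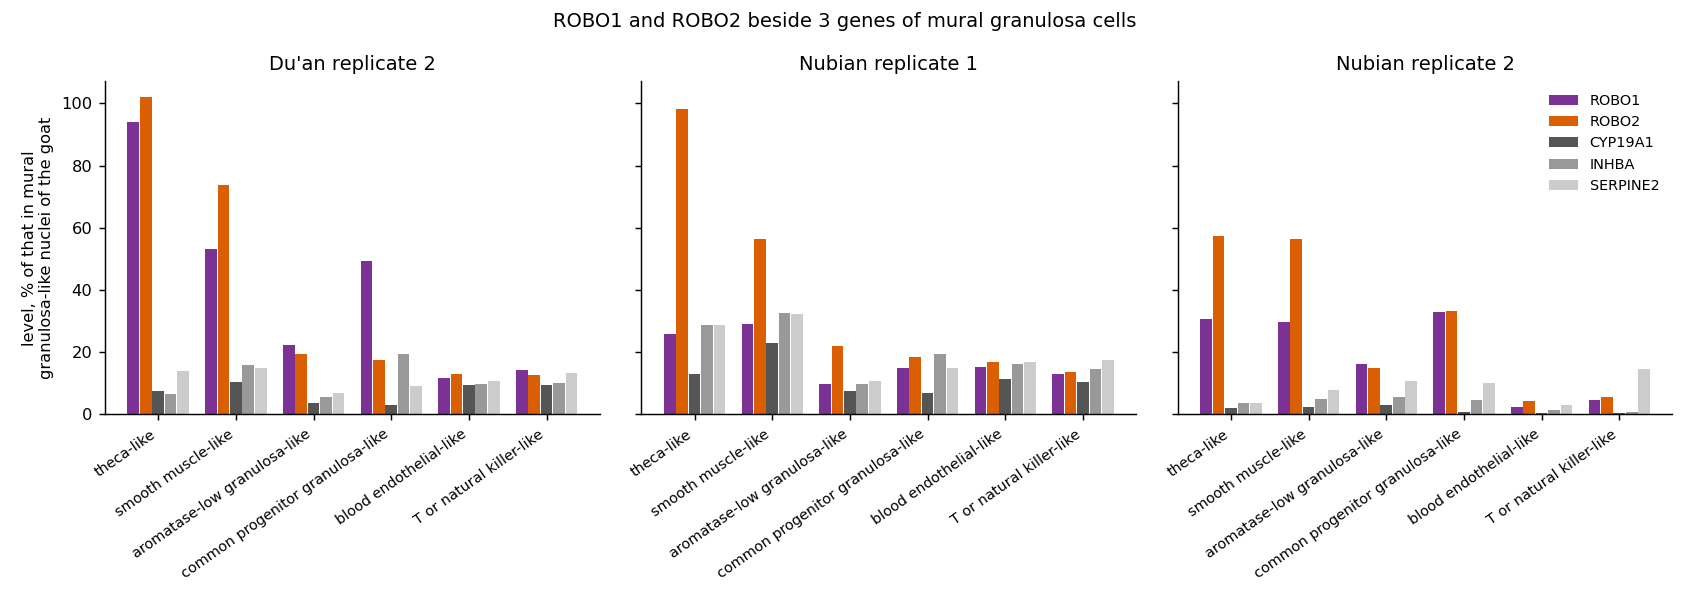
Level of each gene in 6 classes as a percent of its level in mural granulosa-like nuclei of the same goat (y axis), for the 3 goats with mural nuclei, with the receptors in colour and 3 mural genes in grey. The ROBO2 bars stood well above the grey bars in theca-like and smooth muscle-like nuclei in all 3 goats. In Nubian replicate 1 the ROBO1 bars were near the INHBA and SERPINE2 bars in those classes.

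In T or natural killer-like nuclei of Nubian replicate 1, ROBO1 measured 765 CPM, against 46.2 and 111 CPM in the Du'an goats and 67.5 CPM in Nubian replicate 2. There ROBO1 was at 13.1% of the goat's mural level, ROBO2 at 13.6%, CYP19A1 at 10.5%, INHBA at 14.7% and SERPINE2 at 17.5%. The 5 genes of the mural granulosa list summed to 1917 CPM in the lymphocytes of Nubian replicate 1, to 237 and 1377 CPM in those of the Du'an goats and to 406 CPM in those of Nubian replicate 2. The part of RNA from mural cells in the ROBO1 and ROBO2 levels of other classes was not tested.

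Across classes the same goat stood out for ROBO1. Over all kept nuclei ROBO1 measured 284 and 305 CPM in the Du'an libraries, 3158 CPM in Nubian replicate 1 and 415 CPM in Nubian replicate 2. Nubian replicate 1 was highest in 12 of 12 classes, with granulosa-like nuclei and their aromatase-low part counted separately, at 1.43 to 16.8 times the next goat. For ROBO2 it was highest in 11 of 12 classes but by 1.16 to 3.05 times, and for SLIT2 and SLIT3 in 5 of 12 classes each. Among the 8707 genes compared in blood endothelial-like nuclei, no other gene had as high a ratio of Nubian replicate 1 to the highest other goat as ROBO1, at 9.98. The same held among 7778 genes in cycling GCs, where the ratio was 16.8, and among 8398 genes in lymphatic endothelial-like nuclei, where it was 7.79. The cycling ratio compares unlike mixes, since 710 of 797 cycling nuclei of Nubian replicate 1 were in the subcluster with mural markers up. In Nubian replicate 2, the next goat, 13 of 286 were. In other classes more genes had at least the ratio of ROBO1: 2 to 27 in granulosa-like, T or natural killer-like, smooth muscle-like, pericyte-like, macrophage-like and aromatase-low nuclei, ROBO1 included, 179 of 7762 in common progenitor GCs, 188 of 8608 in theca-like and 1045 of 8588 in epithelial-like nuclei. Per 100 ROBO2 UMIs, the median over classes was 17.2, 17.3 and 21.1 ROBO1 UMIs in Du'an replicates 1 and 2 and Nubian replicate 2, and 65.4 in Nubian replicate 1.

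Smooth muscle-like nuclei came from 2 clusters, of which the larger, with 6254 of 9150 nuclei, was shallow. The fibroblast list was nearly as high as the smooth muscle list in both, with a mean log2 fold of 3.04 against 3.16 in the shallow and 3.84 against 4.35 in the deeper cluster. ROBO2 was lower in the shallow than in the deeper cluster in all 4 goats, at 2538 against 3844 CPM in Du'an replicate 1 and 4150 against 4505 CPM in Nubian replicate 1. ROBO1 in Nubian replicate 1 went the other way, at 2239 CPM in the shallow and 1158 CPM in the deeper cluster, together with CYP19A1 at 979 and 350.5 CPM. SLIT3 was lower in the shallow cluster in all 4 goats, at 231 to 372 CPM against 443 to 746 CPM. Of the 4 classes with the highest SLIT3 means, smooth muscle-like nuclei had the highest ROBO2 mean. SLIT3 and ROBO2 were seen together in 22.6% and 28.3% of thinned nuclei of the Du'an goats and in 26.1% and 17.5% of those of the Nubian goats. Those shares were 0.966 to 1.00 times the product of the shares of either gene.

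To ask whether the genes differed between breeds, UMI counts were summed per goat and class and tested by edgeR, with 2 goats against 2 and adjustment over all genes of a class. No member was called in any of the 6 classes compared. The tool called 0 of 14015 genes in granulosa-like nuclei, a background of 0%, and 0 in each of the other classes, of 13068 genes in common progenitor, 9761 in cycling, 4614 in theca-, 12044 in smooth muscle- and 9836 in blood endothelial-like nuclei. At an unadjusted p under 0.05 it listed 421, 208, 218, 97, 458 and 224 genes in these classes in that order. DESeq2 called 33, 4, 2, 0, 14 and 0 genes, with none of the members among them. SLIT2 and SLIT3 had too few counts in theca-like nuclei, which left 22 values to test.

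The largest fold changes of the members were those of ROBO1 in cycling and granulosa-like nuclei. In granulosa-like nuclei it measured 136 and 407 CPM in the Du'an and 4398 and 584 CPM in the Nubian libraries, a log2 fold change of 3.24 ± 1.15 (SE), with an edgeR p of 0.0392 and an adjusted p of 1.00. The breeds did not overlap, as for 12.1% of the genes tested that were higher in both Nubian goats. The same test without Nubian replicate 1 gave a log2 fold change of 1.07 ± 0.73 (SE) with an edgeR p of 0.212. Granulosa-like nuclei are a mix that differed by goat, with 6 of 1005 mural in Du'an replicate 1, 1528 of 3923 in Du'an replicate 2, 3921 of 5870 in Nubian replicate 1 and 460 of 1561 in Nubian replicate 2. In aromatase-low nuclei alone, an alternative chosen after the data were seen, the log2 fold change was 1.33 ± 0.43 (SE), with an edgeR p of 0.0259 and an adjusted p of 1.00. The highest ROBO1 level there, 576 CPM in Nubian replicate 1, was 0.754 times the 765 CPM of the same goat's lymphocytes. The part of free RNA in this difference was not tested.

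In cycling GCs ROBO1 measured 142 and 177 CPM in the Du'an and 3580 and 214 CPM in the Nubian libraries, so that Nubian replicate 2 was close to the Du'an goats. Of the cycling nuclei, 710 of 797 in Nubian replicate 1 but 13 of 286 in Nubian replicate 2 were in the subcluster with mural markers up. The part of this mix in the ROBO1 difference was not tested. The log2 fold change was 3.71 ± 1.33 (SE) with an edgeR p of 0.0371 and an adjusted p of 0.999, and 0.39 ± 0.26 (SE) without Nubian replicate 1. In smooth muscle-like nuclei the values were 379 and 413 CPM against 1697 and 435 CPM, with a log2 fold change of 1.51 ± 0.62 (SE), and 0.11 ± 0.27 (SE) without that goat. In common progenitor GCs the log2 fold change was 0.80 ± 0.37 (SE), and 0.33 ± 0.42 (SE) without it. The direction turned in theca- and blood endothelial-like nuclei, from 0.76 ± 0.63 to -0.40 ± 0.60 (SE) and from 2.66 ± 1.28 to -1.13 ± 0.47 (SE) on the log2 scale. The breeds did not overlap for ROBO1 in granulosa-like, common progenitor, cycling and smooth muscle-like nuclei, where 12.1%, 16.4%, 11.4% and 12.5% of all genes tested were also higher in both Nubian goats. In theca- and blood endothelial-like nuclei, where the breeds overlapped for ROBO1, that background was 14.5% and 14.5%. In either direction, the breeds did not overlap for 1 of 4 members in granulosa-like (background 27.8%), 3 of 4 in common progenitor (24.2%), 2 of 4 in cycling (28.5%), 0 of 2 tested in theca- (26.7%), 3 of 4 in smooth muscle- (30.6%) and 1 of 4 in blood endothelial-like nuclei (28%).

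**Figure D5:**
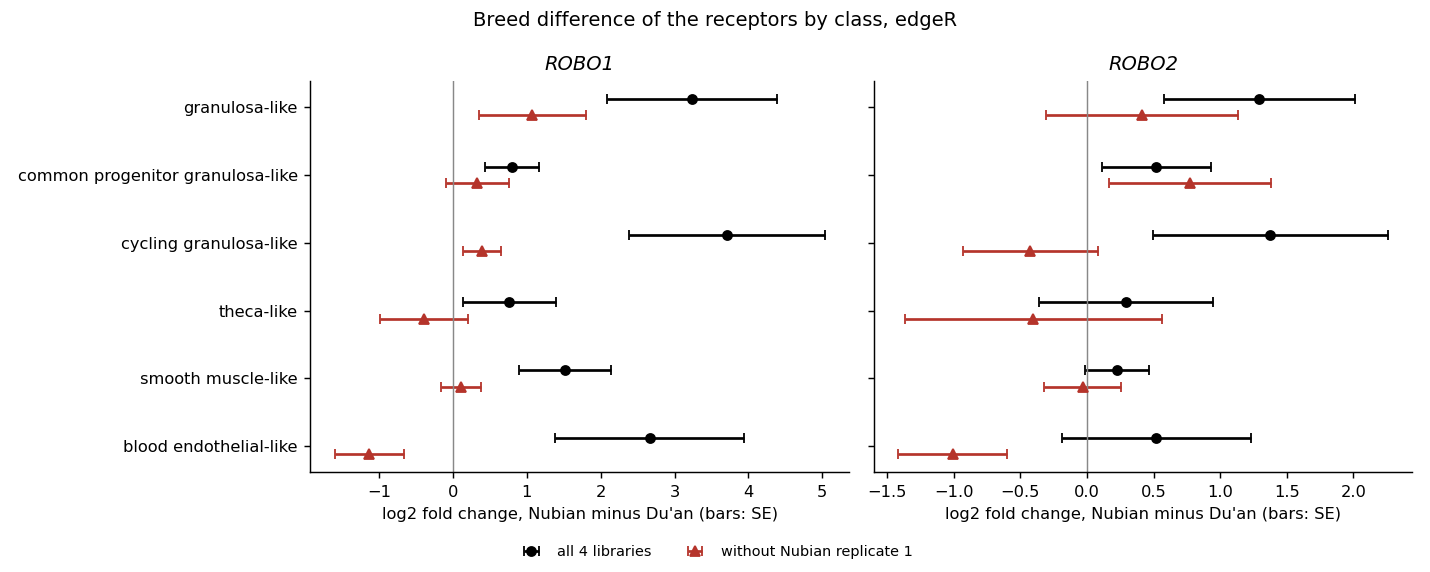
Log2 fold change of ROBO1 and ROBO2 between breeds (x axis, Nubian minus Du'an, with SE) in 6 classes, from edgeR on all 4 libraries (black circles) and without Nubian replicate 1 (red triangles). The ROBO1 circles lay between 0.76 and 3.71 and the triangles between -1.13 and 1.07. The ROBO2 circles lay between 0.23 and 1.38, and 4 of the 6 triangles were below 0.

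ROBO2 did not reach an unadjusted p of 0.05 in any class. Its log2 fold change was 1.29 ± 0.72 (SE) in granulosa-like, 0.52 ± 0.41 (SE) in common progenitor, 1.38 ± 0.88 (SE) in cycling, 0.29 ± 0.65 (SE) in theca-, 0.23 ± 0.24 (SE) in smooth muscle- and 0.52 ± 0.71 (SE) in blood endothelial-like nuclei. In smooth muscle-like nuclei, where the estimate was the most precise, the breeds overlapped. Of the ligands, SLIT2 was lower in both Nubian goats in common progenitor GCs, at 17.6 and 29.9 CPM against 34.8 and 89.8 CPM, with a log2 fold change of -1.41 ± 0.55 (SE), an edgeR p of 0.0481 and an adjusted p of 1.00. The common progenitor state mixes clusters. In Du'an replicate 1 SLIT2 was 22.2 CPM in the unnamed cluster of 4388 nuclei and 52.5 CPM in that of 3213. The part of this mix in the SLIT2 difference was not tested. In smooth muscle-like nuclei SLIT2 and SLIT3 were both lower in the Nubian goats without overlap, as were or were higher 30.6% of all genes tested there. The log2 fold changes were -0.55 ± 0.33 (SE) and -0.45 ± 0.26 (SE), with edgeR p of 0.145 and 0.132. For SLIT2 the breeds nearly met, at 144.9 CPM in Du'an replicate 1 and 142.7 CPM in Nubian replicate 2. Du'an replicate 2, at 288 CPM, stood apart from the other goats. SLIT3 was higher in both Nubian goats in blood endothelial-like nuclei, at 64.1 and 32.7 CPM against 28.6 and 20.1 CPM. The log2 fold change was 1.02 ± 0.41 (SE), with an edgeR p of 0.0502. The reference class also had more SLIT3 in the Nubian goats. T or natural killer-like nuclei measured 39.4 and 39.7 CPM in Nubian replicates 1 and 2, against a lowest value of 13.9 CPM. The lymphocyte level rests on 5 SLIT3 UMIs in Du'an replicate 1 and 66 in Du'an replicate 2. Blood endothelial-like nuclei had 0.824 to 1.98 times the SLIT3 level of the same goat's lymphocytes.

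Whether the breed difference of a class differed from that of granulosa-like nuclei was tested as an interaction in 1 edgeR fit of all 6 classes, with the goat as a block. None of 13386 genes was called for any of the 5 classes set against granulosa-like nuclei, while 120 to 547 genes had an unadjusted p under 0.05. For ROBO1 the interaction was -2.05 ± 0.94 (SE) in theca-like nuclei on the log2 scale, with an edgeR p of 0.0451 and an adjusted p of 1.00, and 0.06 ± 0.92 (SE) in cycling GCs. For SLIT3 the interaction was 1.77 ± 0.72 (SE) in theca-like nuclei, where its counts were too low for the test within the class, with an edgeR p of 0.0257 and an adjusted p of 1.00. In blood endothelial-like nuclei it was 1.12 ± 0.50 (SE), with an edgeR p of 0.0402 and an adjusted p of 1.00. SLIT3 levels in these classes were near those of the same goat's lymphocytes, at 0.640 to 1.30 times in theca-like and 0.824 to 1.98 times in blood endothelial-like nuclei. For SLIT2 the interaction was -1.53 ± 0.67 (SE) in common progenitor GCs, with an edgeR p of 0.0360 and an adjusted p of 1.00. A difference between classes in the breed effect of a member was therefore not established. DESeq2 was not run on this interaction.

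Of the other genes of the families, SLIT1 was hardly detected, with 174 UMIs in all kept nuclei and a highest class mean of 4.58 CPM, and ROBO3 had 34 UMIs. ROBO4, the endothelial receptor of the family, was highest in vessels: it measured 227 and 349 CPM in the Du'an and 178 and 178 CPM in the Nubian blood endothelial-like nuclei, and its mean was 154 CPM in lymphatic endothelial-like nuclei. ROBO3 and ROBO4 are adjacent in the ARS1.2 annotation. Among the SRGAP genes, which encode proteins that bind the receptors inside the cell, SRGAP1 was highest in common progenitor GCs, with 2006 and 1864 CPM in the Du'an and 1984 and 2880 CPM in the Nubian libraries. In mural GCs, where ROBO2 was highest, SRGAP1 measured 432 CPM in Du'an replicate 2 and 431 and 769 CPM in the Nubian libraries. SRGAP2 was highest in lymphatic endothelial-like nuclei, at a mean of 507 CPM, and SRGAP3 in ciliated-like nuclei, at 232 CPM.

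The list of other pathway genes held 32 genes, of which 31 were in the files, with adaptors, kinases, actin regulators and cofactors, and between 21 and 29 of them could be tested by class. No listed gene was called between breeds in any class, beside the background of 0%. At an unadjusted p under 0.05 edgeR listed 2 of 29 in granulosa-like nuclei, beside 421 of all 14015 genes there, and 0 in the other classes. The 2 genes were SRGAP3, with a log2 fold change of 1.22 ± 0.27 (SE) at 4.35 to 11.4 CPM, and the kinase PAK1, with -0.69 ± 0.26 (SE). The median log2 fold change of the list in granulosa-like nuclei was 0.03, beside 0.00 over all genes tested.

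The genes whose levels went most like those of the members were found by Pearson's r of log2(CPM + 1) over 58 sums of a goat and a class, among 9377 genes with a mean of at least 10 CPM. Sums of a goat share a library, and the values are a description. For SLIT2 these were RCAN2 (r = 0.88), SLIT3 (0.88), SOX6 (0.84), DGKB (0.83) and SOX5 (0.79), and for SLIT3 they were SOX6 (0.89), PDE1A (0.88), SLIT2 (0.88), DGKB (0.88) and PDE3A (0.87). For ROBO2 they were the laminin gene LAMA1 (0.88), NKAIN3 (0.87), the netrin receptor gene UNC5C (0.87), RYK (0.85), which encodes a WNT receptor, and SLC24A2 (0.85). For ROBO1 they were ROBO2 (0.81), KIAA1328 (0.81), ZNF618 (0.77), PLPP3 (0.77) and SNX13 (0.76). Each ligand was thus among the closest genes of the other and ROBO2 was the closest gene to ROBO1, while r between a ligand and a receptor lay between -0.08 and 0.06.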

How the data were processed

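Single-nucleus libraries of 4 goats (2 Nubian, 2 Du'an; 1 library each) were analysed from the deposited matrices of UMI counts per gene and nucleus, which the authors made with Cell Ranger (5.0.0 in the submitters' processing notes and in the methods, another version in the matrix header) and did not normalize. The authors used Seurat for their own analysis. The genome is given by an assembly number only, and whether intronic reads were counted is not given in the sources used here. From the authors' marker tables only the deposited fraction of a group's nuclei with a gene was taken, printed as percent, and their fold changes, p-values and other columns were not used.

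The members and all gene lists were chosen with earlier results of these data known. Genes named in the text are the 4 members, the other SLIT, ROBO and SRGAP genes, the 5 genes closest to each member, and markers that check a class. PAK1 was named after its values were seen, as were the mural genes INHBA and SERPINE2 as references.

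Nuclei within 2 SD of the mean UMI and gene counts of their library and with at most 20% mitochondrial UMIs were kept. Scrublet with an expected rate of 10% marked 0, 0, 152 and 1 nuclei, and at that rate it has not worked, so no nuclei were left out on doublet grounds in the values reported. Of 28944 genes, the 19716 seen in at least 5 nuclei were log-normalized to 10000 UMIs. With 2000 variable genes (without members, pathway genes or markers), 30 components and 20 neighbours gave 21 Leiden clusters at a resolution of 0.8. The clusters were made in scanpy 1.11.5 with its igraph form of Leiden (Python 3.11.15). A cluster was named if 3 or more markers of a list reached 20 CPM with a log2 fold of at least 1, with a mean log2 fold of at least 0.5. Unnamed clusters joined the granulosa set at an FSHR log2 fold of at least 1, with other class lists averaging under 1. They also joined if the common progenitor list passed the naming limits. Clusters of 4388 and 3213 nuclei joined in this way and gave many of the common progenitor nuclei. The granulosa set was clustered again at 1.0, and a state marker was up from a log2 fold of 0.5. These limits were chosen with the data in view. Without a name stayed 3504 nuclei and 1558 shallow granulosa nuclei.

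Breeds were compared by edgeR 4.0.16 (quasi-likelihood, TMM, filterByExpr, R 4.3.3) on counts summed per goat and class, with Benjamini-Hochberg adjustment and a limit of 0.05. Alternatives were DESeq2 1.42.0, other size factors, no filter on low counts, other clusterings, a marker gate, other filters on nuclei, a replicate block and leaving out each goat. Removing shared barcodes, crossing the block, taking aromatase-low nuclei alone, leaving out the shallow smooth muscle cluster and subtracting the level of T or natural killer-like nuclei were chosen after the data were seen. Of the steps across genes, the edgeR fit within a class was tested on simulated data, for granulosa-like and theca-like sums. The interaction fit, DESeq2, the replicate blocks and the search for the closest genes were not tested in this way. The median UMI count of a kept nucleus lay between 1755 and 3317 by library, and levels from few UMIs carry counting error beside the spread between goats.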

Additional observations from a re-analysis of the deposited data

Results flagged for a closer look

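In 48 class levels of a member, with 4 goats each, the highest or lowest goat was compared with the range of the group, and chance alone flags about 1 in 20 such groups. A goat stood apart in 10 of them, and 8 of the 10 were ROBO1 with Nubian replicate 1 as the high goat. These were 4398 CPM in granulosa-like nuclei against 584 CPM in the next goat, 3580 against 214 CPM in cycling GCs, 1697 against 435 CPM in smooth muscle-like, 927 against 217 CPM in pericyte-like and 927 against 148 CPM in macrophage-like nuclei. The others were 895 against 89.7 CPM in blood endothelial-like, 765 against 111 CPM in T or natural killer-like and 674 against 86.5 CPM in lymphatic endothelial-like nuclei. The classes share 1 library, so these 8 values are not independent of each other. The 48 levels also count granulosa-like nuclei beside their aromatase-low part. In macrophage-like nuclei the 5 genes of the mural granulosa list summed to 2533 CPM in Nubian replicate 1, to 54.0 and 530 CPM in the Du'an goats and to 383 CPM in Nubian replicate 2. Their part in the ROBO1 value was not tested.

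Nubian replicate 1 also stood apart for ROBO2 in aromatase-low GCs, at 1687 CPM against 982 CPM in the next goat. Du'an replicate 2 stood apart for SLIT2 in smooth muscle-like nuclei, at 288 CPM against 145 CPM.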

How the results depend on the processing

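Of 760 recomputed levels, 709 moved by less than the spread between goats, and of 311 recomputed log2 fold changes 280 kept their direction and their side of the threshold. The levels include means that leave out a goat. Such a mean always moves by less than that spread, so those levels do not test stability. Of the shares of nuclei with a UMI, 71 of 156 moved by more than that spread, each of them with another number of UMIs per nucleus or without thinning, as did 25 of 164 shares of a gene's UMIs, with another clustering or the marker gate. Of 84 recomputed counts of called genes, 15 rose from the 0 of the main fit. Over 14 settings the class with the highest mean stayed the same in 14 for ROBO2, 13 for ROBO1 and SLIT3 and 11 for SLIT2. With a marker gate per nucleus in place of clusters, ROBO1 was 1658 CPM in theca-like and 1653 CPM in mural nuclei, and ROBO2 in mural nuclei was 3954 CPM. Under the gate both ligands were highest in epithelial-like nuclei, with SLIT3 at 1540 CPM and SLIT2 at 596 CPM. Second came fibroblast-like nuclei for SLIT3, at 468 CPM, and ciliated-like nuclei for SLIT2, at 563 CPM. Pericyte-like nuclei, highest for both ligands in the main values, were thus neither first nor second. With TMM-scaled totals ROBO2 in mural nuclei was 8383 CPM. With a filter of 500 UMIs alone, SLIT2 and SLIT3 in epithelial-like nuclei were 152 and 308 CPM. The marker gate and a resolution of 0.4 gave no breed fit for theca-like nuclei. Counts and levels rest on few nuclei in theca-, pericyte-, epithelial- and ciliated-like classes, which limits small differences there.

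Genes called between breeds by DESeq2 were 33 in granulosa-like, 4 in common progenitor, 2 in cycling and 14 in smooth muscle-like nuclei. Without a filter on low counts edgeR called 4, 137, 259, 11, 237 and 84 genes in granulosa-like, common progenitor, cycling, theca-, smooth muscle- and blood endothelial-like nuclei. There ROBO1 was called in cycling GCs (edgeR adjusted p = 1.53e-18), smooth muscle-like (2.63e-07) and blood endothelial-like nuclei (4.48e-10), and ROBO2 in cycling GCs (0.00751), and the cause was not tested. Leaving out each replicate gave 0 to 25 calls in theca-like nuclei (25 without Du'an replicate 1, 16 without Du'an replicate 2) and 0 to 2 in smooth muscle-like nuclei.

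With the replicate number as a block, edgeR called 0 genes in each of the 6 classes, with 306, 126, 146, 84, 422 and 419 genes at an unadjusted p under 0.05, and the log2 fold change of ROBO1 in granulosa-like nuclei was 2.80. The numbers were not shown to pair the goats, since deviations of same-numbered goats correlated between -0.35 and 0.09 by class. A block that crosses the numbers, chosen after the data were seen, also called 0 genes in each class.

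The direction between breeds turned as follows, on the log2 scale. Over the fits that leave out a replicate, ROBO1 ranged from -1.13 to 3.59 in blood endothelial-like and from -0.40 to 1.495 in theca-like nuclei. ROBO2 ranged from -1.01 to 1.23 in blood endothelial-like, from -0.43 to 2.15 in cycling, from -0.033 to 0.44 in smooth muscle-like and from -0.40 to 0.75 in theca-like nuclei. SLIT2 ranged from -1.23 to 0.47 in blood endothelial-like, from -0.20 to 1.03 in cycling, from -0.26 to 0.65 in granulosa-like and from -0.98 to 0.010 in smooth muscle-like nuclei. SLIT3 ranged from -0.47 to 0.63 in common progenitor and from -0.64 to 0.23 in granulosa-like nuclei. SLIT3 in granulosa-like nuclei was also 0.52 with the marker gate, 0.16 at resolutions of 0.4 and 1.2, 0.059 without the top 10% of Scrublet scores and 0.26 in aromatase-low nuclei alone. SLIT3 in common progenitor GCs was -0.023 and -0.012 at resolutions of 0.4 and 1.2. Under the gate SLIT2 in common progenitor GCs was 0.065 and SLIT3 in blood endothelial-like nuclei -0.62. Without the top Scrublet scores SLIT2 was -0.066 in cycling and 0.10 in blood endothelial-like nuclei. Leaving out Nubian replicate 1 turned each of the ROBO1 and ROBO2 directions named here, and the cause was not tested.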
